A study of Mus musculus with 11 samples.

Results

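Mouse heart apexes that had received a single proton dose of 40 Gy were compared, as 1 group of 7 libraries, with 4 libraries from unirradiated apexes, out of 11 bulk RNA-seq libraries in all. The irradiated group pooled 4 libraries after standard proton radiotherapy (S-PRT) with 3 after FLASH proton radiotherapy (F-PRT), which delivers the dose at an ultra-high rate. The comparison aims at the response shared by both dose rates. A pooled change does not by itself show that both share it. The labels give C57BL/6 as the genotype of every sample. The irradiated apexes were taken 2 weeks after focal irradiation of the apex, and the unirradiated group (NR) had no treatment. Libraries were made from total RNA by poly(A) selection, and the animals' age is not among the sources used here. The replicate numbers run from 1 to 4 in NR and S-PRT and from 2 to 4 in F-PRT. No label ties each library to its own animal, so the p-values describe how far these libraries vary, and part of that may be technical.

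Radiation breaks DNA, and the transcription factor p53 then switches on genes that stop the cell cycle, such as Cdkn1a, or favour cell death, such as Bax. DNA that escapes from damaged nuclei can be sensed in the cytosol, and the resulting type I interferon signal turns on antiviral genes through factors of the IRF and STAT families. The heart holds resident macrophages, endothelial cells, fibroblasts and pericytes beside its cardiomyocytes, and monocytes that carry the chemokine receptor Ccr2 enter it after injury.

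The libraries held 20758170 to 40136578 expected counts each. Of 55414 gene identifiers, 14300 passed a filter on low counts and were tested with edgeR's quasi-likelihood test. A gene is called here at a Benjamini-Hochberg adjusted p under 0.05 over those genes, and levels are library-scaled counts (CPM, with TMM scaling) unless said otherwise. The share of counts from mitochondrially encoded genes was 37.0% ± 5.6 in NR (SD, n = 4) and 37.5% ± 7.23 in irradiated libraries (SD, n = 7, exact two-sided permutation p = 0.92), with the lowest share, 24.2%, in F-PRT replicate 4. The cardiomyocyte myosin Myh6 stood at 20500 to 24700 CPM in NR and at 14200 to 23900 CPM after irradiation, so every library held the RNA of heart muscle. The summed level of the 5 erythroid transcripts on a list of blood markers was 1630 to 4010 TPM (a per-length scale) in NR against 936 to 4400 TPM in irradiated libraries.

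One property of the libraries moved with the groups and touches every result below. Within each library, the centred log2 CPM of a gene was correlated with gene length across the 14300 genes, and genes are no independent replicates. Spearman's rho averaged 0.38 ± 0.0338 in NR (SD, n = 4) and -0.162 ± 0.265 in irradiated libraries (SD, n = 7), a difference of -0.542 with an exact two-sided permutation p of 0.0091 over 330 splits, where 0.003 is the smallest p possible. All 4 NR libraries, at 0.347 to 0.427, lay above all 7 irradiated ones, which spread from -0.567 in F-PRT replicate 4 to 0.274 in S-PRT replicate 4. Short genes therefore read higher and long genes lower after irradiation. The median log2 fold change was 0.31 in the shortest of 10 equal bins of genes by length and -0.23 in the longest. The labels give an RNA integrity number above 9 for every sample, and the part of RNA quality in this trend was not tested. Many results below are therefore followed by their value after a smooth trend with length was removed from every library. Where no such value is given, a call may not outlast that step.

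**Figure D1:**
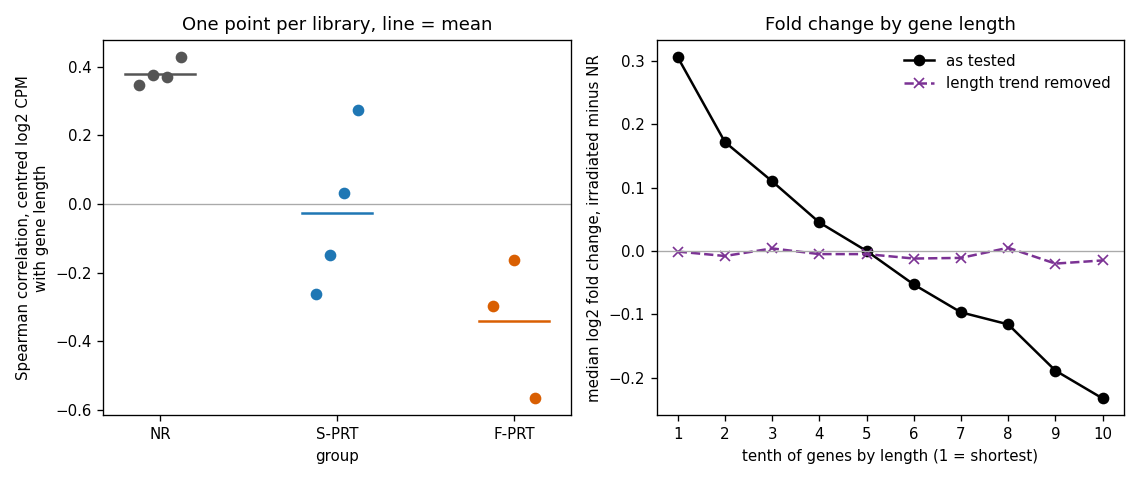
Left, the Spearman correlation across genes of centred log2 CPM with gene length in each library (points) and each group's mean (lines). Right, the median log2 fold change of irradiated minus NR in 10 bins of genes by length, which runs from 0.31 to -0.23 as tested and stays near 0 once the length trend is removed.

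Of the 14300 genes, 1000 were called (6.99%), 620 higher (4.34%) and 380 lower (2.66%) after irradiation. In a list of few genes, no call at all is close to the share of 6.99%. At least 2-fold changes were called for 200 genes upward (1.4%) and 45 downward (0.315%). In 455 called genes all 7 irradiated libraries lay above all 4 NR libraries (3.18% of genes tested), and in 283 all 7 lay below (1.98%). The higher genes had a median length of 1100 bases and the lower ones of 4075 bases, against 2505 bases over all genes tested. With the length trend removed, 128 of the 620 and 84 of the 380 were still called, and 20 and 20 when replicate number was also a block. With replicate number as a block 320 genes were called (2.24%). The count rested on the small NR group. It was 121 without NR replicate 4, 196 without NR replicate 1, 227 without NR replicate 3 and 259 without NR replicate 2. Leaving out F-PRT replicate 2 gave 414 calls, and leaving out S-PRT replicate 4 gave 1511.

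**Figure D2:**
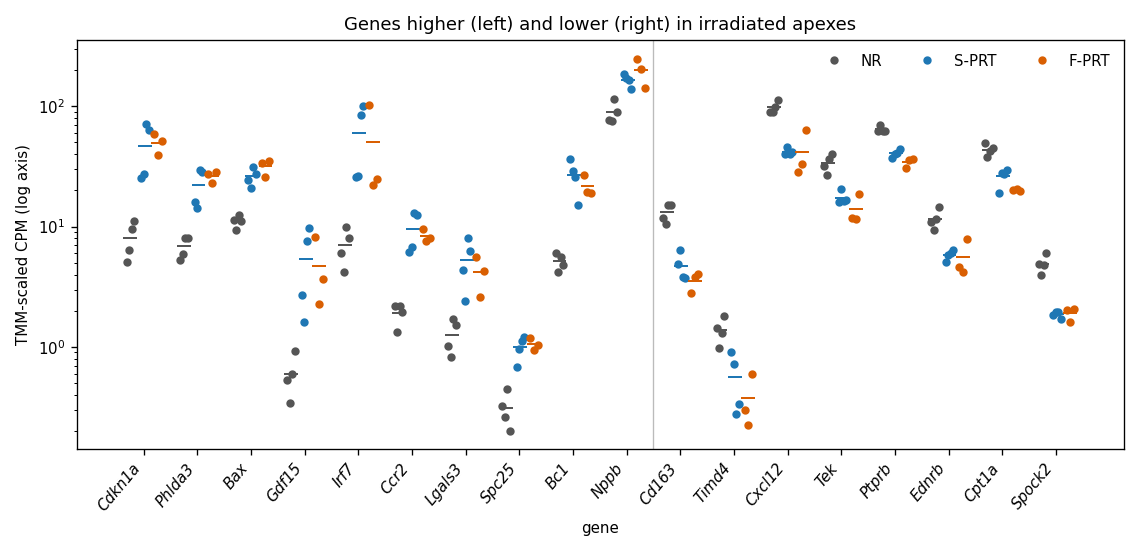
TMM-scaled CPM on a log axis for named genes in each of the 11 libraries (points) with the mean of each group (lines). In the genes on the left, such as Cdkn1a, Bax and Ccr2, the irradiated libraries lie above NR, and in those on the right, such as Cd163, Tek and Spock2, they lie below.

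Some p53 target genes rose, 11 of 26 tested for arrest, repair and feedback and 5 of 15 for cell death, where 4.34% of all genes tested did. Cdkn1a (ENSMUSG00000023067.15), the p21 inhibitor of cyclin-dependent kinases, was at 5.09, 6.38, 9.53 and 11.2 CPM in NR replicates 1 to 4. In the irradiated libraries it ran from 25.4 to 70.6 CPM with a median of 51.9, with no overlap between the groups. Its log2 fold change was 2.57 ± 0.32 (SE, edgeR adjusted p = 0.0016). Phlda3 (ENSMUSG00000041801.6), a p53-induced repressor of Akt signalling, was at 5.3, 5.97, 8.12 and 8.11 CPM in NR and at 14.3 to 29.7 CPM, median 27.2, after irradiation. The groups again did not overlap, and the log2 fold change was 1.79 ± 0.22 (edgeR adjusted p = 0.0016). Trp53inp1, which promotes p53-dependent arrest and autophagy, rose by 1.0 ± 0.14 on the log2 scale (edgeR adjusted p = 0.0034). Ckap2, a spindle protein, rose by 2.48 ± 0.41 (edgeR adjusted p = 0.0069). These 4 calls were kept in all 11 fits that left out 1 library. The 26 arrest, repair and feedback targets had a median log2 fold change of 0.33 against -0.01 over all genes, with 20 positive and 6 negative. Without NR replicate 4, 7 rose. No target of the list fell in edgeR, where 1 had an unadjusted p under 0.05 downward, and DESeq2 called 1 lower. Mdm2, the ubiquitin ligase that p53 induces against itself, was at 39.7 to 44.5 CPM in NR and at 37.0 to 51.5 CPM after irradiation (log2 fold change 0.17 ± 0.09, edgeR adjusted p = 0.21). The transcript of p53 itself, Trp53, had a log2 fold change of 0.28 ± 0.19 (edgeR adjusted p = 0.33). Removing the length trend gave the list a median of 0.43 and Cdkn1a stood at 2.49 (edgeR adjusted p = 0.0039).

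Among the p53 targets that favour cell death, 5 of 15 rose, against 4.34% of all genes, with a median log2 fold change of 0.57, and 11 had an unadjusted p under 0.05 upward. Bax (ENSMUSG00000003873.12), which opens the outer mitochondrial membrane, was at 11.3, 9.29, 12.6 and 11.1 CPM in NR and at 20.9 to 35.3 CPM, median 27.5, in irradiated libraries. Every irradiated library lay above every NR library, and the log2 fold change was 1.37 ± 0.14 (edgeR adjusted p = 0.00046). Eda2r, a death receptor of the TNF receptor family, was at 1.59, 1.36, 1.85 and 2.22 CPM in NR and at 3.61 to 7.28 CPM, median 4.15, after irradiation (log2 fold change 1.5 ± 0.23, edgeR adjusted p = 0.0064). Zfp365, a zinc finger protein of the DNA damage response, rose by 2.57 ± 0.40 (edgeR adjusted p = 0.0064), and Aen, an apoptosis-enhancing nuclease, by 0.57 ± 0.10 (edgeR adjusted p = 0.011). The same 4 genes kept their calls in each of the 11 leave-one-out fits. The other call was Bbc3, which encodes PUMA, at 1.4 to 2.49 CPM in NR and 2.42 to 4.2 CPM after irradiation (log2 fold change 0.79 ± 0.19, edgeR adjusted p = 0.031), and it was lost without any 1 of the NR libraries, S-PRT replicate 3 or F-PRT replicate 2. Of 21 tested genes that repair double-strand breaks, edgeR called none, against 6.99% of all genes. In a list this short that does not set them apart. In edgeR 2 of these genes had an unadjusted p under 0.05 upward and 3 downward, and DESeq2 called 1 higher. Their median log2 fold change was -0.06.

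Gdf15 (ENSMUSG00000038508.8), a secreted stress cytokine, had the second largest rise among the genes named for size. It was at 0.53, 0.34, 0.597 and 0.919 CPM in NR and at 1.6 to 9.66 CPM, median 3.66, in irradiated libraries (log2 fold change 3.06 ± 0.54, edgeR adjusted p = 0.0098). Its highest levels, 8.26, 7.65 and 9.66 CPM, were in F-PRT replicate 2, S-PRT replicate 3 and S-PRT replicate 4. It belongs to the integrated stress response, in which phosphorylated eIF2α slows translation and favours the factors Atf4 and Ddit3. Of the 16 tested genes of that response, 5 rose (2 with replicate number as a block), against 4.34% of all genes, with a median log2 fold change of 0.41. Sesn2, a stress-induced inhibitor of mTORC1, was at 2.53 to 3.29 CPM in NR and at 3.96 to 8.75 CPM after irradiation (log2 fold change 1.08 ± 0.22, edgeR adjusted p = 0.016). Ddit3, which encodes CHOP, had a log2 fold change of 0.84 ± 0.22 (edgeR adjusted p = 0.038), and of 0.60 (edgeR adjusted p = 0.19) with the length trend removed. Gdf15 kept its call in all 11 leave-one-out fits, while Sesn2 lost its call without NR replicate 4 (edgeR adjusted p = 0.05) and Ddit3 in 5 of them (without any 1 of the NR libraries or S-PRT replicate 3, at most 0.11). Without NR replicate 4, 1 gene of the response was called. With the length trend removed, 2 of the 5 calls were kept.

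Part of the genes of DNA replication and of mitosis rose. Of 32 tested mitosis genes 15 rose, against 4.34% of all genes, and the median log2 fold change of 1.25 was the highest of any list with at least 5 tested genes. Of 30 replication genes 7 rose, against the same 4.34%, with a median of 0.61. With replicate number as a block 5 mitosis and 2 replication genes rose. Spc25 (ENSMUSG00000005233.17), a subunit of the kinetochore complex that binds spindle microtubules, was at 0.326, 0.264, 0.448 and 0.202 CPM in NR and at 0.688 to 1.2 CPM, median 1.04, after irradiation. The groups did not overlap (log2 fold change 1.73 ± 0.27, edgeR adjusted p = 0.0064), and the call was kept in every leave-one-out fit. Mki67, the proliferation marker, was at 1.55, 1.17, 2.84 and 2.78 CPM in NR and at 3.36 to 8.05 CPM, median 3.91, in irradiated libraries (log2 fold change 1.32 ± 0.31, edgeR adjusted p = 0.03). NR replicates 3 and 4 held more of it than replicates 1 and 2, and among irradiated libraries F-PRT replicate 2 with S-PRT replicates 3 and 4 held the most. Cdk1, the mitotic kinase, rose by 1.44 ± 0.30 (edgeR adjusted p = 0.02), and Tpx2, a spindle assembly factor, by 1.64 ± 0.33 (edgeR adjusted p = 0.017). Mcm5, a subunit of the replicative helicase, rose by 1.16 ± 0.23 (edgeR adjusted p = 0.017), and E2f1, the transcription factor of S phase entry, by 1.56 ± 0.38 (edgeR adjusted p = 0.03). Of these, Mki67 and E2f1 lost their calls without any 1 of the NR libraries or without F-PRT replicate 2 (edgeR adjusted p up to 0.084). Cdk1 lost its call without NR replicates 1, 2 or 4 (up to 0.064), Tpx2 without NR replicates 1 or 4 (up to 0.058) and Mcm5 without NR replicates 1 or 2 (up to 0.054). Without NR replicate 4 only 1 mitosis gene was called, against 22 without F-PRT replicate 3. Without any 1 of the NR libraries or F-PRT replicate 2, 1 replication gene was called. Removing the length trend left the mitosis median at 1.27 and the replication median at 0.63.

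The promoters of the mitosis genes that rose are shown because most of them hold a pair of short motifs in the full window searched. The promoter table (RefSeq, GRCm38.p6) spans 250 bases before to 50 after each start, and 10636 of 14263 tested symbols had an entry. The searched letters were TTTGAA, the core of the cell cycle homology region, and ATTGG, the CCAAT box, each on both strands, and these do not overlap each other below. Of 14 windows of the called mitosis genes, 10 held TTTGAA (71.4%) and 12 held ATTGG (85.7%). Over all 13596 windows of tested genes the shares were 12.1% and 37.3%. By gene these were 9 of 13 (95% Wilson interval 42.4 to 87.3%, for counting error only) and 11 of 13 (57.8 to 95.7%). With only the 200 bases before the start, 6 of 13 genes held TTTGAA (46.2%) and 11 of 13 held ATTGG (84.6%). Over all tested genes with an entry those shares were 9.42% and 36.2%. In the 80 bases before the start, read 5′ to 3′ along the gene, capitals mark these motifs on either strand (TTCAAA and CCAAT are the reverse complements).
Cdk1, chr10:69352913-69352992, minus strand: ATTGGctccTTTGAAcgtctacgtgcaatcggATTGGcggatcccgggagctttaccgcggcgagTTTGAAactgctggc
Cdc20, chr4:118437344-118437423, minus strand: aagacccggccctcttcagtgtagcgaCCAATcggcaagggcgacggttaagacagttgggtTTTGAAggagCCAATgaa
Kif11, chr19:37376302-37376381, plus strand: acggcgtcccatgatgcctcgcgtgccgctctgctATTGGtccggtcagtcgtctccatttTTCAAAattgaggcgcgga
Top2a, chr11:99024190-99024269, minus strand: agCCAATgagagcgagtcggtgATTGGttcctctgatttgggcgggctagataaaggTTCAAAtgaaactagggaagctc
Cdc20, an activator of the anaphase-promoting complex, had a log2 fold change of 1.63 ± 0.42 (edgeR adjusted p = 0.037). Kif11, the spindle motor, had 1.23 ± 0.29 (edgeR adjusted p = 0.029) and Top2a, the topoisomerase of dividing cells, 1.54 ± 0.39 (edgeR adjusted p = 0.036). These 3 calls were lost without any 1 of the NR libraries or F-PRT replicate 2. Among all windows of genes called higher, 14.4% held TTTGAA and 37.1% ATTGG, close to the shares over all genes. A match of letters is a description of the sequence and not evidence that a factor binds.

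The type I interferon response was the other large group that rose, with 18 of 40 tested genes called higher (9 with replicate number as a block), against 4.34% of all genes, a median log2 fold change of 1.08 and 32 genes at an unadjusted p under 0.05 upward. Irf7 (ENSMUSG00000025498.16), the factor that amplifies interferon production, was at 6.03, 4.19, 9.98 and 7.98 CPM in NR and at 22.3 to 103 CPM, median 26.5, in irradiated libraries. The irradiated libraries split, with 103 CPM in F-PRT replicate 2, 85.0 and 101 CPM in S-PRT replicates 3 and 4, and 22.3 to 26.5 CPM in the other 4, all above NR. The log2 fold change was 2.97 ± 0.54 (edgeR adjusted p = 0.011). Ifit1, an antiviral protein that binds foreign RNA, was at 2.61, 2.23, 5.59 and 4.03 CPM in NR and at 9.16 to 44.2 CPM, median 12, after irradiation (log2 fold change 2.69 ± 0.56, edgeR adjusted p = 0.019). Isg15, a ubiquitin-like modifier, was at 0.937, 1.66, 3.17 and 2.42 CPM in NR and at 2.9 to 16.1 CPM, median 9.25, with F-PRT replicate 3 inside the NR range (log2 fold change 2.23 ± 0.47, edgeR adjusted p = 0.021). Usp18, the protease that removes Isg15 from its targets, rose by 2.10 ± 0.46 (edgeR adjusted p = 0.022), and Oasl1, a 2'-5' oligoadenylate synthetase-like protein, by 2.71 ± 0.54 (edgeR adjusted p = 0.017). Mx1, an antiviral GTPase, was at 0.0407 to 0.209 CPM in NR and 0.628 to 4.58 CPM after irradiation (log2 fold change 3.81 ± 0.72, edgeR adjusted p = 0.012). Irf7 was called in all 11 leave-one-out fits and Mx1 in 10, all but the one without NR replicate 4 (edgeR adjusted p = 0.051). Ifit1, Isg15, Usp18 and Oasl1 lost their calls without NR replicates 1, 2 or 4, with adjusted p up to 0.066. In the fit without NR replicate 4 the response held 2 calls, and in that without F-PRT replicate 3 it held 25. With the length trend removed its median was 0.99, and 8 of the 18 calls were kept. Reads of Ifit3 and Ifit3b were shared between these near-identical genes, so their separate levels are uncertain.

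Interferon-stimulated genes are known for a promoter element read by IRF and STAT factors, and the letters of its core, GAAANNGAA, were searched on both strands. Of the 12 called interferon genes with a promoter entry, 8 held it (66.7%, 95% Wilson interval 39.1 to 86.2%), against 7.31% of all 13596 windows and 13% of the windows of genes called higher. Neighbouring matches can overlap, and each window counts once. The stretches below, 80 bases read 5′ to 3′ along the gene, show the repeated cores that these 4 genes carry ahead of their start, in capitals on either strand, where overlapping matches run together.
Ifit1, chr19:34640765-34640844, plus strand: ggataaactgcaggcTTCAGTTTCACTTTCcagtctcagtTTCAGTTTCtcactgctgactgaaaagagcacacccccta
Ifit3, chr19:34583387-34583466, plus strand: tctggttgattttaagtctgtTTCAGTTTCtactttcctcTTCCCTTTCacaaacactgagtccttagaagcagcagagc
Isg15, chr4:156200845-156200924, minus strand: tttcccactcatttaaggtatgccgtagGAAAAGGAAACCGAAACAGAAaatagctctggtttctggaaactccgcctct
Oas1a, chr5:120907526-120907605, minus strand: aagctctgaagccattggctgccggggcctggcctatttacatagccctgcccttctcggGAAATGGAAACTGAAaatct
Oas1a, an RNA-activated oligoadenylate synthetase, was at 0.717 to 2.24 CPM in NR and 2.07 to 7.74 CPM after irradiation (log2 fold change 1.69 ± 0.43, edgeR adjusted p = 0.037), a call lost without any 1 of the NR libraries, S-PRT replicate 3 or F-PRT replicate 2. The other motifs searched included GGANNTTCC for NF-kB, held by 6.51% of windows of genes called higher and 4.57% of all windows, and TGANTCA for AP-1, held by 8.1% and 5.13%. The p53 motif, a single decamer, was in 3 of 12 windows of the called arrest and repair targets (25%) and in 6.91% of all windows, and with only the 200 bases before the start in 1 of 12 (8.33%) and in 4.6%.

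Interferon signalling has a second, gamma-driven arm with its own GTPases. Of 14 tested, 1 was called, near the share of 6.99% over all genes. The difference between the 2 lists was not tested, and across libraries both stood highest in NR in replicate 3 and among irradiated libraries in F-PRT replicate 2 with S-PRT replicates 3 and 4. Of 14 tested interferon-inducible GTPases none rose and 1 fell, against 4.34% and 2.66% of all genes. In edgeR 2 had an unadjusted p under 0.05 upward and 4 downward, and DESeq2 called 2 lower. Tgtp1 was the one called lower, at 3.75, 5.29, 21.3 and 10.2 CPM in NR against 2.18 to 5.98 CPM, median 3.06, in irradiated libraries (log2 fold change -1.51 ± 0.39, edgeR adjusted p = 0.038). NR replicate 3 held the highest level, and without it the log2 fold change was -0.86 (edgeR adjusted p = 0.14). The call was also lost without NR replicate 4, S-PRT replicates 1, 2 or 3, or F-PRT replicates 2 or 3. Its counts were not whole in any library, so it shares reads with other genes. NR replicate 3 also stood highest in NR for the median over MHC class II genes. Of 9 of these, none was called by edgeR, with 4 at an unadjusted p under 0.05 upward, and DESeq2 called 1 higher. Their invariant chain Cd74 was at 76.0, 53.5, 141 and 81.6 CPM in NR and at 72.3 to 269 CPM, median 117, after irradiation (log2 fold change 0.75 ± 0.39, edgeR adjusted p = 0.22). Of 17 MHC class I genes, 2 rose, against 4.34% of all genes, the immunoproteasome subunit Psmb10 by 0.74 ± 0.19 (edgeR adjusted p = 0.033) and the proteasome activator Psme2 by 0.49 ± 0.14 (edgeR adjusted p = 0.049). Neither was called without any 1 of the NR libraries or without F-PRT replicate 2 (up to 0.099 and 0.13), or with the length trend removed (0.18 and 0.35).

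Transcripts of recruited monocytes rose while those of 2 resident macrophage receptors fell. In bulk RNA, more or fewer cells of a type and more or less RNA per cell cannot be told apart, here and in all results on cell type markers. Ccr2 (ENSMUSG00000049103.15), the receptor by which monocytes follow Ccl2, was at 2.2, 1.32, 2.18 and 1.95 CPM in NR and at 6.15 to 13 CPM, median 8.03, in irradiated libraries. The lowest irradiated library exceeded the highest NR library by a wide margin, and the log2 fold change was 2.25 ± 0.24 (edgeR adjusted p = 0.00046). Cd163 (ENSMUSG00000008845.10), the haemoglobin scavenger receptor of resident macrophages, was at 11.9, 10.6, 15.1 and 15.2 CPM in NR and at 2.83 to 6.43 CPM, median 3.8, after irradiation (log2 fold change -1.66 ± 0.18, edgeR adjusted p = 0.00046). Both genes were called under every alternative run, 11 that left out 1 library and 11 others. Timd4, a phosphatidylserine receptor of long-lived resident macrophages, fell from 0.982 to 1.82 CPM in NR to 0.223 to 0.904 CPM (log2 fold change -1.54 ± 0.34, edgeR adjusted p = 0.023), with the call lost without NR replicates 1, 3 or 4 (up to 0.088). Not all resident markers followed, since of 15 tested 2 fell and 1 rose, against 2.66% and 4.34% of all genes. The 15 had a median log2 fold change of 0.20, with 9 positive and 6 negative. The gene that rose was the growth arrest protein gene Gas6, by 0.50 ± 0.11 (edgeR adjusted p = 0.021, and up to 0.066 without NR replicates 1, 3 or 4). Lyve1, another resident marker, had a log2 fold change of -0.21 ± 0.15 (edgeR adjusted p = 0.37). Of 22 markers of recruited monocytes and activated macrophages, 8 rose, against 4.34% of all genes, with a median of 1.03, and 4 rose without NR replicate 4. Lgals3, which encodes galectin-3, rose by 1.91 ± 0.33 (edgeR adjusted p = 0.0094), and Mmp12, the macrophage elastase, by 2.76 ± 0.50 (edgeR adjusted p = 0.011), both in every leave-one-out fit. Removing the length trend gave the list a median of 0.72, and 4 of the 8 calls were kept.

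Chemokines that draw monocytes rose with them. Of 23 tested chemokines and receptors on that list, 7 rose and 1 fell, against 4.34% and 2.66% of all genes, with a median of 0.59 (0.27 with the length trend removed), and 2 rose without NR replicate 4. Ccl2, the main ligand of Ccr2, was at 0.733, 1.21, 0.986 and 1.03 CPM in NR and at 1.79 to 6.81 CPM, median 3.5, in irradiated libraries (log2 fold change 1.94 ± 0.36, edgeR adjusted p = 0.012, and 0.05 without NR replicate 4). The related ligands Ccl8 and Ccl12 had log2 fold changes of 3.18 ± 0.54 (edgeR adjusted p = 0.0086) and 2.59 ± 0.47 (edgeR adjusted p = 0.011), from NR levels of at most 0.508 CPM, and were called in all leave-one-out fits. The chemokine that fell was Cxcl12 (ENSMUSG00000061353.12), made by stromal and vascular cells, at 90.4, 89.8, 99.1 and 113 CPM in NR and at 28.5 to 63.2 CPM, median 40.2, after irradiation. All irradiated libraries lay below all NR libraries, and the log2 fold change was -1.23 ± 0.16 (edgeR adjusted p = 0.0026). Its call was kept in every fit without 1 library, and with the length trend removed it stood at -1.08 (edgeR adjusted p = 0.019). Of 18 inflammatory cytokines and NF-kB feedback genes 5 rose, against 4.34% of all genes, among them Relb by 0.53 ± 0.11 (edgeR adjusted p = 0.02) and Tnf by 1.68 ± 0.42 (edgeR adjusted p = 0.034), but without NR replicates 1, 2 or 4, or with replicate number as a block, none of the list was called. Against 4.34% of all genes higher and 2.66% lower, of 17 complement genes 3 rose, including the macrophage genes C1qa and C1qb, and 1 fell. C1qb had a log2 fold change of 1.0 ± 0.25 (edgeR adjusted p = 0.035, and up to 0.098 without any 1 of the NR libraries or F-PRT replicate 2). With the length trend removed, 1 of the complement calls was kept.

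Markers of other blood cells gave no call in edgeR, while DESeq2 called 2 neutrophil markers. The 9 tested T, NK and B cell markers of 21 listed summed to 6.6 to 12.7 TPM in NR and 4.91 to 11.8 TPM in irradiated libraries, with 4 at an unadjusted p under 0.05 downward, and neither edgeR nor DESeq2 called any. Of 10 neutrophil markers 3 passed the count filter. They summed to 1.97 to 6.65 TPM in NR and 5.03 to 20.7 TPM after irradiation, edgeR called none, 2 had an unadjusted p under 0.05 upward, and DESeq2 called 2 higher. S100a9, a calcium-binding protein of neutrophil granules, was at 0.326, 0.906, 0.597 and 1.05 CPM in NR and at 0.846 to 5.64 CPM, median 1.6, after irradiation (log2 fold change 1.71 ± 0.54, edgeR adjusted p = 0.07). Mast cell markers, 4 tested, gave no call by either tool and none at an unadjusted p under 0.05.

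**Figure D3:**
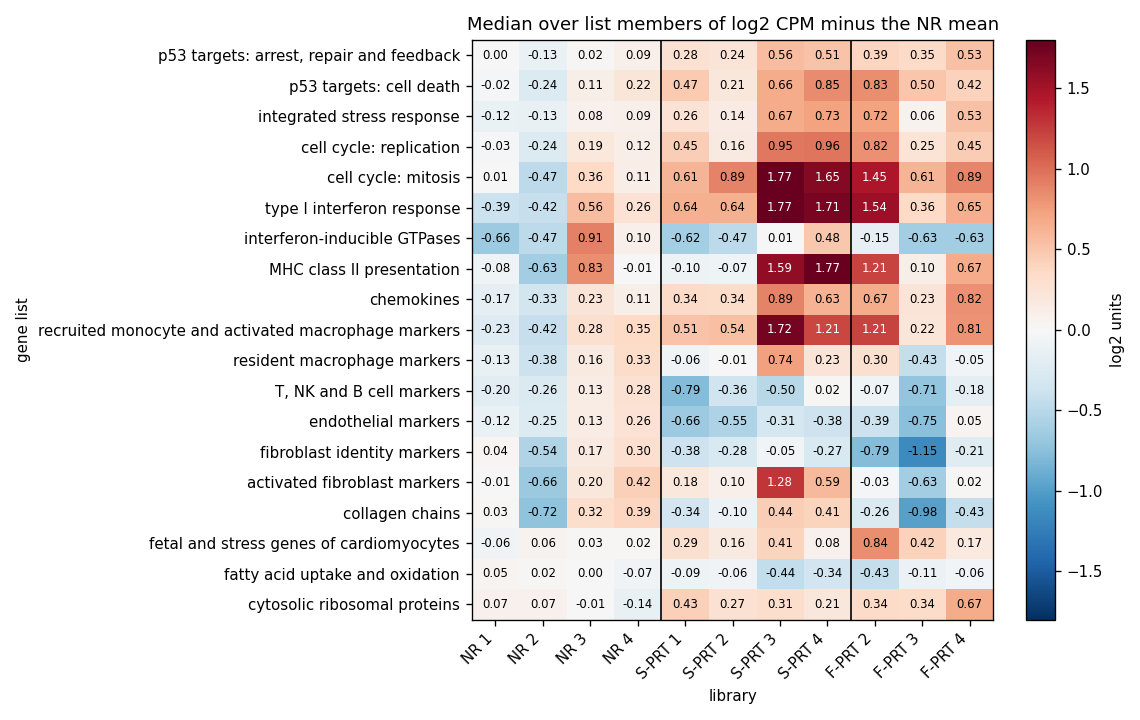
Each cell is the median, over the tested members of a gene list, of log2 CPM minus that gene's NR mean in 1 library, with NR, S-PRT and F-PRT separated by lines. F-PRT replicate 2 with S-PRT replicates 3 and 4 hold the highest values of the mitosis list (1.45 to 1.77) and the interferon list (1.54 to 1.77).

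The irradiated libraries were not alike in the immune and proliferative lists. For the interferon list the median member stood 1.54 log2 units above the NR mean in F-PRT replicate 2, 1.77 and 1.7 above it in S-PRT replicates 3 and 4, and 0.36 to 0.65 above it in the other 4. The monocyte list had 1.21, 1.72 and 1.21 in those 3 libraries and 0.22 to 0.81 in the rest. NR libraries differed too, with interferon values of -0.39 and -0.42 in NR replicates 1 and 2 and 0.56 and 0.26 in replicates 3 and 4, so that NR replicate 3 lay above F-PRT replicate 3 at 0.36. The p53 arrest list was more even, from 0.24 to 0.56 in the 7 irradiated libraries and from -0.13 to 0.09 in NR. The lists therefore differed in how far the groups were apart relative to the spread within them, and libraries of both dose rates were found at either end.

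Some endothelial transcripts fell, namely the receptors Tek, Tie1, Kdr, Flt1 and Ednrb, the phosphatase Ptprb and the water channels Aqp1 and Aqp7. Of 28 tested endothelial markers 8 fell, against 2.66% of all genes, with a median log2 fold change of -0.37. No marker rose in edgeR, 2 had an unadjusted p under 0.05 upward, and DESeq2 called 1 higher. Tek (ENSMUSG00000006386.16), the Tie2 receptor for angiopoietins, was at 31.6, 26.8, 36.5 and 40.2 CPM in NR and at 11.6 to 20.6 CPM, median 16.2, in irradiated libraries (log2 fold change -1.08 ± 0.15, edgeR adjusted p = 0.0037). Ptprb (ENSMUSG00000020154.11), the phosphatase that acts on Tie2, was at 62.5, 69.8, 62.5 and 61.8 CPM in NR and at 30.5 to 44.2 CPM, median 37.1 (log2 fold change -0.76 ± 0.09, edgeR adjusted p = 0.0012). Neither gene's groups overlapped. The call of Aqp7 was kept in 7 of the 11 leave-one-out fits (lost without any 1 of the NR libraries, up to 0.087), that of Aqp1 in 3 (up to 0.1) and that of Tie1 in 1. Ednrb, an endothelin receptor, fell by 1.01 ± 0.16 (edgeR adjusted p = 0.0064), and the VEGF receptor Flt1 fell by 0.91 ± 0.14 (edgeR adjusted p = 0.0064). The calls of Tek, Ptprb, Ednrb and Flt1 were kept in the 11 leave-one-out fits. Kdr, the main VEGF receptor of endothelium, was at 79.2, 90.5, 107 and 144 CPM in NR and at 48.6 to 89.1 CPM, median 61.4, and fell by 0.73 ± 0.17 (edgeR adjusted p = 0.027). It lost its call without NR replicates 2, 3 or 4, S-PRT replicate 1 or F-PRT replicate 2 (up to 0.096). Pecam1, a general endothelial marker, was at 66.2 to 94.6 CPM in NR and 52.0 to 103 CPM after irradiation (log2 fold change -0.06 ± 0.18, edgeR adjusted p = 0.85). These are long genes, 11487 bases for Ptprb and 6624 for Flt1, and with the length trend removed Ptprb stood at -0.48 (edgeR adjusted p = 0.039), Tek at -0.91 (0.022) and Ednrb at -0.87 (0.032), while Flt1 at -0.66 (0.097) and Kdr at -0.49 (0.21) were not called. Without NR replicates 2, 3 or 4, 4 markers fell, and without F-PRT replicate 4, 15 did. The 15 pericyte and smooth muscle markers had no call in edgeR, 2 at an unadjusted p under 0.05 upward and 6 downward, and 2 called lower by DESeq2.

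Of 20 fibroblast identity genes 4 fell, against 2.66% of all genes. Pdgfra (ENSMUSG00000029231.16), the receptor that marks cardiac fibroblasts, was at 24.0, 12.5, 23.6 and 27.5 CPM in NR and at 6.59 to 13 CPM, median 11.1, in irradiated libraries (log2 fold change -1.05 ± 0.21, edgeR adjusted p = 0.018). NR replicate 2 lay inside the irradiated range. It was one of 4 genes called lower among 20 fibroblast identity markers, with Scara5, Abca8a and Dpp4, and the list's median was -0.47. Without NR replicates 1, 3 or 4 none of the 4 was called (adjusted p up to 0.11). With the length trend removed 1 of the 4 calls was kept, and Pdgfra was at -0.84 (edgeR adjusted p = 0.07). Among 17 markers of activated fibroblasts 2 rose, against 4.34% of all genes, Thbs4 by 0.92 ± 0.23 (edgeR adjusted p = 0.034) and the transcription factor Meox1 by 0.87 ± 0.23 (edgeR adjusted p = 0.04), and both lost their calls without any 1 of the NR libraries or F-PRT replicate 2 (up to 0.092 and 0.11). Postn, which encodes periostin, was at 9.36 to 20.2 CPM in NR and at 13.7 to 67.0 CPM, median 17.5, after irradiation (log2 fold change 0.98 ± 0.42, edgeR adjusted p = 0.14). Of 27 collagen chains edgeR called none, against 6.99% of all genes, which in a list this short does not set them apart. Among these chains 3 had an unadjusted p under 0.05 downward, and DESeq2 called 1 lower. The chains had a median length of 5317 bases and a median log2 fold change of -0.17, and of 0.003 with the length trend removed. Col1a1 had 68.5, 34.3, 97.7 and 107 CPM in NR and 34.2 to 131 CPM, median 65.9, in irradiated libraries (log2 fold change -0.07 ± 0.33, edgeR adjusted p = 0.9), and Col3a1 0.14 ± 0.33 (edgeR adjusted p = 0.81). Tgfb1, the fibrogenic cytokine, had 0.28 ± 0.16 (edgeR adjusted p = 0.28). The collagen list's median was 0.07 in S-PRT against NR and -0.54 in F-PRT against NR, and no chain was called between the dose rates. For the activated fibroblast markers those medians were 0.45 and -0.33, with a pooled median of 0.17 and no marker called between the dose rates.

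Among matrix genes the clearest change was Spock2 (ENSMUSG00000058297.17), a secreted proteoglycan of the testican family. It was at 4.85, 4.0, 4.81 and 6.03 CPM in NR and at 1.62 to 2.07 CPM, median 1.94, in the irradiated libraries, which lay within a narrow band (log2 fold change -1.39 ± 0.13, edgeR adjusted p = 0.00046, kept in every leave-one-out fit). Of 23 matrix proteases and inhibitors 2 rose and 3 fell, against 4.34% and 2.66% of all genes. Mmp28 fell by 1.12 ± 0.18 (edgeR adjusted p = 0.0068), though its reads were shared with other genes in all libraries. Timp4, a tissue inhibitor of metalloproteinases, was at 14.5, 21.6, 24.8 and 20.7 CPM in NR and at 2.15 to 15.4 CPM, median 6.15, after irradiation, with F-PRT replicate 4 highest (log2 fold change -1.68 ± 0.42, edgeR adjusted p = 0.033). Timp1 rose by 1.56 ± 0.43 (edgeR adjusted p = 0.046). The calls of both Timp genes were lost without any 1 of the NR libraries, S-PRT replicate 1 or F-PRT replicate 2, that of Timp1 also without S-PRT replicate 3 or F-PRT replicate 4 (up to 0.092 and 0.12).

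Cardiomyocyte stress genes rose in part. Nppb (ENSMUSG00000029019.9), which encodes the natriuretic peptide released by strained heart muscle, was at 76.8, 75.8, 116 and 89.0 CPM in NR and at 140 to 248 CPM, median 171, after irradiation. All irradiated libraries lay above NR, the log2 fold change was 1.01 ± 0.16 (edgeR adjusted p = 0.0068), and the call was kept in the 11 leave-one-out fits. The transcript is 781 bases long, and with the length trend removed the log2 fold change was 0.73 (edgeR adjusted p = 0.053). Ankrd1, a stretch-responsive protein of the sarcomere, was at 691, 891, 1040 and 967 CPM in NR and at 1190 to 3520 CPM, median 1580 (log2 fold change 1.09 ± 0.28, edgeR adjusted p = 0.038, and up to 0.11 without any 1 of the NR libraries or S-PRT replicate 3). Rcan1, a calcineurin inhibitor, rose by 0.41 ± 0.10 (edgeR adjusted p = 0.033, and up to 0.099 without any 1 of the NR libraries or F-PRT replicate 2). Of 16 tested fetal and stress genes 5 rose, against 4.34% of all genes, with a median log2 fold change of 0.53. Only 1 rose without NR replicates 1, 2 or 4 or with replicate number as a block. Nppa had 48.2 to 80 CPM in NR and 24.0 to 193 CPM in irradiated libraries (log2 fold change 0.93 ± 0.40, edgeR adjusted p = 0.15), and the fetal myosin Myh7 had 0.64 ± 0.57 (edgeR adjusted p = 0.48). Neither had whole counts in any library, so both share reads with other genes. Kcnv2, a modulatory potassium channel subunit, fell by 0.77 ± 0.13 (edgeR adjusted p = 0.0068). It was the only call among 25 calcium cycling and ion channel genes, where 2.66% of all genes were called lower, and DESeq2 called 3 lower. Atp2a2, the sarcoplasmic calcium pump, had -0.35 ± 0.18 (edgeR adjusted p = 0.23).

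A few genes of fatty acid use fell, 4 of 30 tested, against 2.66% of all genes. Cpt1a (ENSMUSG00000024900.6), the enzyme that commits fatty acids to mitochondrial oxidation, was at 49.1, 38.0, 42.2 and 45.1 CPM in NR and at 19.2 to 29.7 CPM, median 20.7, after irradiation. The groups did not overlap, and the log2 fold change was -0.89 ± 0.13 (edgeR adjusted p = 0.0061, kept in all leave-one-out fits, and -0.74 with adjusted p 0.0086 once the length trend was removed). Cd36, the fatty acid transporter, was at 1130, 1110, 1170 and 1150 CPM in NR and at 635 to 996 CPM, median 825 (log2 fold change -0.47 ± 0.10, edgeR adjusted p = 0.025, and up to 0.086 without any 1 of the NR libraries). The 30 genes for fatty acid uptake and oxidation had a median of -0.22, 13 had an unadjusted p under 0.05 downward and 0 upward, and DESeq2 called 7 lower. Without any 1 of the NR libraries, or with replicate number as a block, 1 of them was called. Txnip, a brake on glucose uptake and thioredoxin, was at 596, 518, 542 and 405 CPM in NR and at 147 to 371 CPM, median 221 (log2 fold change -1.05 ± 0.22, edgeR adjusted p = 0.018, and up to 0.075 without NR replicates 1, 2 or 3). The 16 metabolic regulators of the PGC-1 and PPAR circuit had no call in either tool, with 5 at an unadjusted p under 0.05 downward and a median of -0.20.

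Ribosomal protein genes were the largest block that rose by count, and the one most bound up with gene length. Of 79 tested, 50 rose, against 4.34% of all genes, 76 had an unadjusted p under 0.05 upward, and in 60 all irradiated libraries lay above all NR libraries (4.85% of all genes did so, and 4.5% lay wholly below), while the median log2 fold change was 0.39. Rps19, a small subunit protein, was at 86.7, 85.4, 79.3 and 71.9 CPM in NR and at 104 to 131 CPM, median 115 (log2 fold change 0.52 ± 0.08, edgeR adjusted p = 0.0064). Their median length was 668 bases. With the length trend removed the median was 0.07, Rps19 stood at 0.18 (edgeR adjusted p = 0.15) and 0 of the 50 calls were kept. Without NR replicate 4, 5 rose, with replicate number as a block 19, and with library size in place of TMM scaling, 2. Many have processed pseudogenes, and reads of Rps19 were shared in every library. Nuclear genes of oxidative phosphorylation, with a median length of 704 bases, gave the same picture. Of 75, 9 rose, against 4.34% of all genes, with a median of 0.27. With replicate number as a block 1 of the 75 rose, where 181 of all 14300 genes did. After removal of the trend the median was -0.04 with 0 calls kept, while without NR replicates 2, 3 or 4 none was called. The 13 mitochondrially encoded mRNAs had no call by either tool, with 1 at an unadjusted p under 0.05 upward.

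Bc1 (ENSMUSG00000115783.2), a short non-coding RNA known from neurons, showed one of the smallest p-values of all. It was at 5.99, 4.23, 5.56 and 4.8 CPM in NR and at 15.1 to 36.7 CPM, median 25.6, in irradiated libraries. No library of one group came near the other, and the log2 fold change was 2.25 ± 0.23 (edgeR adjusted p = 0.00046), called under all 22 alternatives. With the length trend removed it was 1.64 (edgeR adjusted p = 0.0016). On the per-length scale it averaged 811 TPM in NR and 2630 TPM after irradiation, with a model 168 bases long. Pcdhgc4 (ENSMUSG00000023036.15), a clustered protocadherin, had the largest rise among the genes named for size, from 0.448, 0.453, 1.61 and 0.762 CPM in NR to 3.9 to 36.4 CPM, median 8.22 (log2 fold change 3.88 ± 0.66, edgeR adjusted p = 0.0083). Its exons are shared across the protocadherin gamma cluster, and 10 of 11 libraries held counts that were not whole, so which isoform rose is uncertain.

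Smaller groups gave few calls. Of 24 NRF2 targets and antioxidant enzymes 4 rose and 1 fell, against 4.34% and 2.66% of all genes. Gpx1, a glutathione peroxidase, rose by 0.70 ± 0.11 (edgeR adjusted p = 0.0063, and 0.43 with adjusted p 0.061 once the length trend was removed). Hmox1, haem oxygenase 1, rose by 0.97 ± 0.22 (edgeR adjusted p = 0.024, and up to 0.073 without NR replicates 1, 2 or 4), and catalase, Cat, fell by 0.35 ± 0.10 (edgeR adjusted p = 0.043), a call kept only without S-PRT replicates 2 or 4 or F-PRT replicate 4. Of 5 tested epicardial and mesothelial markers 2 fell, Upk3b and Msln, against 2.66% of all genes. Upk3b was at 1.02, 0.113, 4.57 and 6.16 CPM in NR and at 0.0 to 0.629 CPM, median 0.215, in irradiated libraries (log2 fold change -3.50 ± 0.81, edgeR adjusted p = 0.027). NR replicate 2 lay inside the irradiated range, and without NR replicate 4 the value was -2.86 (edgeR adjusted p = 0.099), with the call also lost without NR replicate 3 or F-PRT replicate 2. The summed level of the 10 epicardial markers listed was 2.44 to 9.83 TPM in NR and 1.82 to 5.06 TPM after irradiation. The clock repressors Nr1d1 and Bhlhe41 were the 2 of 18 tested circadian genes called lower, against 2.66% of all genes. They fell by 0.45 ± 0.10 (edgeR adjusted p = 0.027) and 0.38 ± 0.09 (edgeR adjusted p = 0.026). Both were lost without any 1 of the NR libraries or F-PRT replicate 2, and Nr1d1 also without S-PRT replicate 1 or F-PRT replicate 3 (up to 0.094 and 0.087). With the length trend removed, 0 calls of the antioxidant, epicardial and circadian lists were kept.

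**Figure D4:**
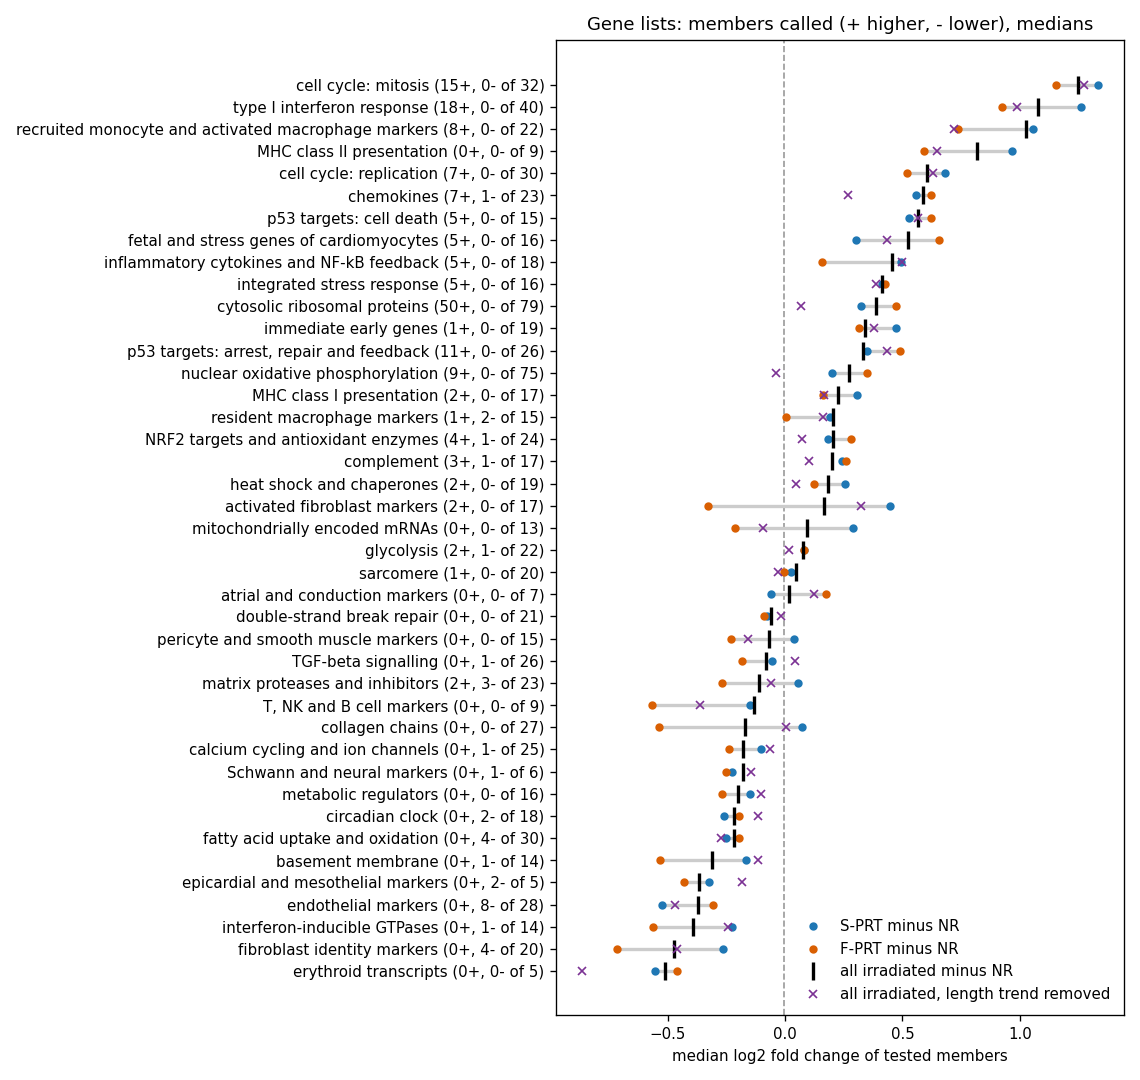
Median log2 fold change over the tested members of each list with at least 5 tested genes, for all irradiated libraries (black bars), each dose rate against NR (dots) and all irradiated libraries with the length trend removed (crosses), with the dashed line at the median of all genes. The labels give the members called higher and lower, such as 15 of 32 for mitosis and 50 of 79 for ribosomal proteins, whose cross lies at 0.07.

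Both dose rates were then set side by side for the genes called in the pooled comparison, in a fit with 3 groups. The comparisons with NR share the 4 NR libraries, so their likeness is not independent evidence. For the 620 higher genes the median log2 fold change was 0.54 in S-PRT and 0.63 in F-PRT, and for the 380 lower genes -0.44 and -0.62. Cdkn1a had 2.52 ± 0.35 in S-PRT and 2.62 ± 0.37 in F-PRT (F-PRT minus S-PRT 0.10 ± 0.35, edgeR adjusted p = 0.92). Irf7 had 3.07 ± 0.59 and 2.82 ± 0.61, Ccr2 had 2.33 ± 0.26 and 2.13 ± 0.27, and Spock2 had -1.41 ± 0.16 and -1.36 ± 0.17. Among the fibroblast genes Pdgfra stood at -0.84 ± 0.21 and -1.39 ± 0.24, and among the endothelial genes Ptprb stood at -0.66 ± 0.08 and -0.91 ± 0.09. None of the 1000 genes differed between the dose rates at an adjusted p under 0.05 in edgeR. At an unadjusted p under 0.05 there were 140. DESeq2 called 7 of the 1000, edgeR with no filter 5, limma on log2(TPM + 1) 3, edgeR with 1 surrogate variable 1 and edgeR without F-PRT replicate 3 called 6. Over all 14300 genes edgeR called 3 (0.021%), Tmtc3, Rsc1a1 and Uprt, and 2273 had an unadjusted p under 0.05 (15.9%). With 3 and 4 libraries a p that misses the threshold does not show that the dose rates act alike. Of the 620 higher genes 404 had the larger change in F-PRT, as did 313 of the 380 lower genes. The length correlation was -0.296, -0.164 and -0.567 in the F-PRT libraries and -0.264 to 0.274 in S-PRT, and its part in those counts was not tested.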

How the data were processed

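RNA-seq values for 11 libraries of mouse heart apex were analysed, grouped by the sample titles as NR (4), S-PRT (4) and F-PRT (3). Per the labels' protocols, libraries came from a poly(A) and directional kit, while no source used here says if counting used strand, which leaves genes that overlap or lie antisense uncertain. The submitters' processing notes list edgeR, RSEM, STAR, cutadapt and FastQC without versions. They name mm10 as well as GRCm39, and so no gene coordinates are printed from the files. The deposited expected counts, per the file headers, come from RSEM, which shares ambiguous reads between genes. The deposited TPM are scaled by the authors with RSEM's effective length, and the deposited gene lengths are in bases, per the file headers. Of 55414 identifiers, 52081 matched a symbol table and 3333 did not.

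Expected counts were rounded. With filterByExpr at a minimum count of 10 and a minimum total of 15, 14300 genes remained. Counts were scaled with TMM and fitted in edgeR 4.0.16 (R 4.3.3) with irradiated against NR as 2 groups and 9 residual degrees of freedom. A fit with 3 groups on the same genes gave each dose rate's values. The standard error is the absolute log2 fold change divided by the square root of the F statistic. Log2 CPM used a prior count of 2. Library measures were compared by exact two-sided permutation tests over the 330 ways to name 4 of 11 libraries NR. The 44 gene lists, the rule of this comparison and the named genes were chosen with earlier results of these data known, and lists are described by counts and medians only. Of 972 listed symbols, 970 matched and 894 were tested. Named were the 12 genes with the largest rise and the 12 with the largest fall at a mean log2 CPM of at least 1, up to 4 called genes of each list, the 8 with the largest rise and fall in TPM, and 25 further genes. The text prints those it describes, with other list members added where a count is explained. Of 141 named genes, 102 had whole counts in every library and 23 in none. Some genes that the rule names are not reported here. Tested on simulated data for the pooled comparison (14300 genes, 200 changed), the fit recovered 41.8% of those changed 1.5-fold, 79.1% at 2-fold and 95.5% at 4-fold, and called 16 unchanged genes. The simulated counts carried no length trend and no split among the irradiated libraries, so these values hold only for data without them. Alternatives were DESeq2 1.42.0 and its size factors, library size only, no filter, limma 3.58.1 on log2(TPM + 1), replicate number as a block, 1 surrogate variable (sva 3.50.0), removal of a length trend per library by lowess with span 0.3, the same with the block, mitochondrial genes left out, 3 groups, and each library left out. Promoters came from RefSeq on GRCm38.p6, which served for sequence only.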

Additional observations from a re-analysis of the deposited data

Results flagged for a closer look

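In 376 groups of 4 or 7 values, 20 had a library far from the others by a gap test for which chance gives about 1 in 20, so their number is close to what chance gives. Values are log2 CPM, with the nearest other library in brackets. In NR, Clspn was high in replicate 4 at -0.836 (-1.86) and Psme2 high in replicate 3 at 5.2 (4.93). In NR replicate 2, Zfp365 was low at -1.97 (-0.745), Tnf low at -3.25 (-1.9) and Scara5 low at 3.49 (4.46), while Ptprb at 6.13 (5.97) and Perm1 at 8.28 (8.07) were high. In NR replicate 1, Gins2 was low at -0.0538 (1.55) and Egr3 low at -2.4 (-1.59). The list medians of NR replicate 3 were high for glycolysis at 0.0106 and for NRF2 targets at 0.0855.

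Among irradiated libraries, Abca4 was low in S-PRT replicate 3 at -0.244 (0.816), Adamtsl3 high in S-PRT replicate 4 at 1.81 (0.612) and Spc25 low in S-PRT replicate 1 at -0.404 (0.023). F-PRT replicate 4 stood apart 6 times. It was low for Parp1 at 4.93 (5.33), for Myh6 at 13.8 (14.2) and for the median of double-strand break repair genes at -0.453 (-0.0828). It was high for Rgs5 at 8.38 (7.8), Txn1 at 6.01 (5.63) and the NRF2 median at 0.316 (0.217). The same library had the lowest mitochondrial share, 24.2%, and the lowest length correlation, -0.567, and without it 1370 genes were called.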

How the results depend on the processing

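Calls between irradiated and NR libraries were 1000 (620 higher, 380 lower). They were 125 (59 and 66) with library size only, 1860 (1088 and 772) with DESeq2, 7 (5 and 2) with limma on log2(TPM + 1), 320 (181 and 139) with the replicate block, 1720 (1130 and 590) with 1 surrogate variable, 249 (146 and 103) with the length trend removed, 41 (20 and 21) with the length trend removed and the replicate block, and 2132 (1059 and 1073) with 3 groups. Leaving out 1 library gave 121 to 1511 (75 to 853 higher, 46 to 658 lower), with the fewest without NR replicate 4. F-PRT against S-PRT had 3 calls, and 1 with library size only, 71 with no filter, 167 with DESeq2, 6 with limma on TPM, 6 with 1 surrogate variable, and 0 with the replicate block, the length trend removed or both. It had 0 to 97 with 1 library left out. Whether replicate numbers pair the libraries differed by arm. Deviations correlated at 0.18 to 0.4 in all 4 same-numbered pairs of NR with S-PRT, where 4 of 12 other pairs were over 0.1, but at -0.52 to 0.27 in the 3 of NR with F-PRT, and 3 of 11 libraries were closest to their own number. Of the other pairs of NR with F-PRT, 5 of 9 were over 0.1. Over both arms 5 of 7 same-numbered pairs were over 0.1. These values do not settle whether the replicate numbers pair the libraries. The main fit left replicate number out, and the 320 calls with the block are given beside it.

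The mitochondrial share differed by 0.541 points, by -1.88 points on the TPM scale, and by -1.59 to 2.8 points with 1 library left out. The length correlation differed by -0.614 to -0.474 in those fits. The p53 motif was in 11.1% of called arrest genes with 200 bases before the start only, against 33.3%. Of the 117 named genes called, 57 were kept with the length trend removed, and Ndufv3 turned to -0.01. DESeq2 kept 117, the replicate block 67, library size only 42, the length trend removed with the replicate block 14 and limma on log2(TPM + 1) 4. Limma on log2(TPM + 1) called 0 of 40 interferon genes, 0 of 32 mitosis genes and 1 of 26 p53 targets for arrest, repair and feedback. List medians turned sign for TGF-beta signalling (0.04, and 0.02 with the replicate block) and nuclear oxidative phosphorylation (-0.04 and -0.03) with the length trend removed, and for the sarcomere (-0.03 and -0.04, and -0.01 with library size only). They also turned for matrix proteases (0.02 with 1 surrogate variable, 0.04 without NR replicate 4, 0.01 without F-PRT replicate 3, and down to -0.23 without S-PRT replicate 3), glycolysis (-0.06 with limma on TPM), activated fibroblast markers (-0.06 without S-PRT replicate 3, and up to 0.38 without NR replicate 4), adipocyte markers (1.8 with no filter) and Schwann markers (0.01 with no filter, 0.11 without NR replicate 3, and down to -0.33 without NR replicate 2). The cause of these changes was not tested. Depth limits the precision of genes near 1 CPM.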

Other observations

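A pair of predicted genes that the naming rule leaves out stood among the 4 largest rises. Gm10800 held 19, 4, 7 and 8 expected counts in NR replicates 1 to 4 and 118 to 1351 in the 7 irradiated libraries (log2 fold change 6.23 ± 0.78 SE, edgeR adjusted p = 0.0016). Gm10801 held 1, 1, 0 and 0 counts in NR and 12 to 140 in irradiated libraries (adjusted p = 0.0068). In 7 of 11 libraries the counts of each were not whole, so they share reads with other genes. Gm10800 was at 5.66 in S-PRT and 6.77 in F-PRT on the log2 scale against the shared NR libraries. They were chosen after their values were seen.

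In all, 82 genes kept their call in each of the 11 leave-one-out fits, with the replicate block and with the length trend removed, 48 higher and 34 lower. They were chosen after their values were seen, and in all 82 the groups did not overlap. Several belong to no list above. Cdh23, a cadherin of cell links, fell by 1.72 ± 0.18 (edgeR adjusted p = 0.00046). The arterial ligand Efnb2 fell by 0.86 ± 0.10 (edgeR adjusted p = 0.0014), the aryl hydrocarbon receptor Ahr by 1.06 ± 0.16 (edgeR adjusted p = 0.0063), and Igfbp3, a binding protein of insulin-like growth factors, by 1.16 ± 0.19 (edgeR adjusted p = 0.0069). Ltc4s, the leukotriene C4 synthase, rose by 2.05 ± 0.23 (edgeR adjusted p = 0.00071), Rps27l, a p53-induced ribosomal protein paralogue, by 0.76 ± 0.08 (edgeR adjusted p = 0.00046) and Slfn4, a Schlafen family gene of myeloid cells, by 3.21 ± 0.53 (edgeR adjusted p = 0.0069).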
